A study of Mus musculus with 18 samples.

Results

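The genes of the steroid receptors and of the coregulators that work with them were followed through the differential m6A peaks of the day 5 pregnant mouse uterus. There were 8 genes: the receptors Esr1, Pgr, Nr3c1 and Nr2f2, and the coregulators Ncoa1, Ncoa2, Ncoa3 and Ncor1. A peak was taken as a member where its deposited feature annotation names one of these genes, or where the table assigns it to one of them and its centre lies between that gene's start and end. This gave 42 of the 41084 differential peaks, in 7 of the 8 genes, and 11895 genes in all had a peak under the same rule. Nr3c1 had none. N6-methyladenosine (m6A) is a methyl mark on adenosines inside mRNA, and m6A-seq measures it by sequencing RNA fragments that an m6A antibody pulls down (IP) next to the fragments before pull-down (input).

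The mice were wild-type ICR females, an outbred stock, 8 weeks old, and whole uteri were taken on day 5 of pregnancy. Veh mice received vehicle injections on days 1 to 4. In the paper LPS was dissolved in saline, and melatonin in saline containing ethanol. LPS mice were also injected on days 1 to 4. On days 3 and 4 they received lipopolysaccharide, a bacterial cell wall component that sets off inflammation, at 0.5 mg/kg. Mel+LPS mice received melatonin at 10 mg/kg on days 1 to 4 and the same LPS. Each treatment had 3 input and 3 IP libraries, 18 in all.

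Estrogen and progesterone prepare the uterus for implantation through their nuclear receptors. The estrogen receptor α (gene Esr1) drives growth of the epithelium and the progesterone receptor (Pgr) prepares the stroma for decidualization, while the glucocorticoid receptor (Nr3c1) answers stress hormone and restrains inflammation. COUP-TFII (Nr2f2) is an orphan nuclear receptor of the endometrial stroma that acts downstream of progesterone. A receptor bound to hormone recruits coactivators of the p160 family, SRC-1 (Ncoa1), SRC-2 (Ncoa2) and SRC-3 (Ncoa3), whereas the corepressor NCOR1 (Ncor1) joins receptors to histone deacetylase.

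The sequences that bear most directly on the methylation of these mRNAs are those under peaks on exons. m6A is laid down mainly in a motif called DRACH, which is A, G or T, then A or G, then A, C and finally A, C or T. The windows below are shown because they come from the largest internal exon of each coregulator, from a later exon of Ncoa2 and from the first exon of Pgr, where 8 of the differential peaks lie. Each has 25 bases of the mRNA strand in GRCm38 (GENCODE transcripts), with the DRACH match at its centre printed in capitals. The peaks hold 4 to 15 DRACH matches each, and 1 per peak is centred here. Where a peak has a match with the letters GGAC, the centred match is such a one. The windows therefore do not show how common GGAC is. The windows of Pgr exon 1 and of Ncoa3 exon 12 up in LPS each hold a further match in lower case, GAACA and AAACT. Up or down in LPS means higher or lower than in Veh, and up or down in Mel+LPS means higher or lower than in LPS.
Ncoa1 exon 12, up in LPS, chr12:4295313-4295337, minus strand: ctgcctcctcTAACCcctcaggagg
Ncoa1 exon 12, up in Mel+LPS, chr12:4295147-4295171, minus strand: gtcagtgtctGGACAatcccagggg
Ncoa3 exon 12, up in LPS, chr2:166055539-166055563, plus strand: ccgacagtggGGACAgtaaactgag
Ncoa3 exon 12, up in Mel+LPS, chr2:166055250-166055274, plus strand: tcaacatcagGGACAgtgtcttcca
Ncoa2 exon 11, up in Mel+LPS, chr1:13174374-13174398, minus strand: gactcttacaGGACAgcagttcccc
Ncoa2 exon 21, down in LPS, chr1:13148329-13148353, minus strand: gcctacgtcaGGACTgccctccatg
Ncor1 exon 20, up in Mel+LPS, chr11:62373277-62373301, minus strand: ccgactccgtGGACCcagaaatgca
Pgr exon 1, up in Mel+LPS, chr9:8900828-8900852, plus strand: actccctccgGGACCgaacagagtc
A match is a description of letters and not a mapped methylation site, because a peak spans many bases.

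The authors' deposited tables compare LPS with Veh and Mel+LPS with LPS. Each peak has 1 score per comparison, a log likelihood ratio from MACS2 that grows as a difference between treatments explains the reads better than none. The tables give no value per replicate, so no difference below has a replicate error or a test, and the depth is unknown. A score ranks the evidence for a difference and is not the size of a change in methylation. In whole uterus, fewer cells of a type and less RNA per cell cannot be told apart, and neither can a change in methylation and a change in transcript level. Both comparisons use the LPS libraries, so a site up in LPS that is down in Mel+LPS is not counted as 2 independent results. The deposited list of peaks down in LPS stops partway along chromosome 10. It covers Pgr, Nr2f2, Ncoa2 and Ncoa3 fully, reaches past Esr1 on chromosome 10, and does not reach Ncoa1, Ncor1 or Nr3c1.

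The tables held 11 member peaks up in LPS, 10 down in LPS, 14 up in Mel+LPS and 7 down in Mel+LPS. Esr1 had 17 of the 42 peaks and Pgr 7, Ncoa2 and Ncor1 had 5 each, Ncoa3 had 4, and Ncoa1 and Nr2f2 had 2 each. All 7 genes with a peak had one that was up in Mel+LPS, against 55.6% of all genes with a peak in any table. The corresponding counts were 4 of 7 up in LPS (46.7% of all genes) and 4 of 7 down in Mel+LPS (37.6%). Of the 4 members with a peak on chromosomes 1 to 9, 2 were down in LPS, where the share of all genes was 48%. Against all protein-coding RefSeq genes the members' counts were 4 of 8 up in LPS (20.1%), 7 of 8 up in Mel+LPS (25.6%) and 4 of 8 down in Mel+LPS (15.3%). A gene with more peaks has more occasions to be counted, and this was not adjusted for. By annotation name alone, or by assigned gene wherever the peak lies, 6 members had a peak up in Mel+LPS. The 14 peaks up in Mel+LPS had a median score of 2.50, against 2.18 for all peaks up in Mel+LPS that were tied to a gene. At a score of 3 or more, 3 genes kept such a peak. The share of all genes at that score is not given here.

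**Figure D1:**
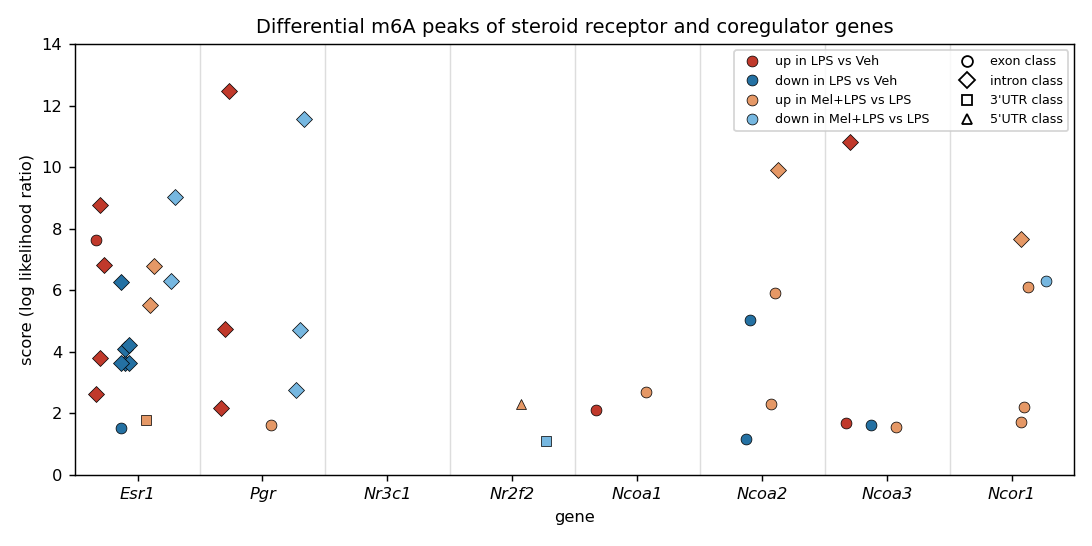
Score (log likelihood ratio, vertical axis) of each of the 42 member peaks by gene; colours mark the 4 tables and symbols the deposited feature class. Esr1 and Pgr are mostly intron-class diamonds that reach 12.5, the coregulators are mostly exon-class circles, and Nr3c1 has no point.

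Receptor and coregulator genes differed in where their peaks lay. In the deposited annotation, 20 of the 26 receptor peaks were intronic (76.9%, Wilson 95% interval over peaks 57.9 to 89.0) and 13 of the 16 coregulator peaks were exonic (81.3%, 57.0 to 93.4). Among all 28692 peaks tied to a gene, 24.7% were intronic and 56.6% exonic. Without Esr1, 6 of 9 receptor peaks were intronic (66.7%, 35.4 to 87.9), all 6 in Pgr. On 1 coding GENCODE transcript per gene, the centres of 20 member peaks were over 200 bases from any exon of that transcript, 13 lay within 200 bases after the end of an exon, and 9 lay on an exon. The limit of 200 bases was chosen after the distances were seen. All 20 distant peaks were in Esr1 or Pgr, 4305 to 35113 bases from the nearest exon of the coding transcript, and 0 of the 16 coregulator peaks were distant. One of the 20, in Esr1, lies on an exon of a noncoding transcript of that gene. Over all coding genes 16.2% of peaks were over 200 bases from an exon of the coding transcript.

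The 4 tables differed in the same respect. Sites over 200 bases from an exon of the coding transcript made up 8 of 11 member peaks up in LPS (72.7%; 7 of them of the intron class), 6 of 10 down in LPS (60%) and 5 of 7 down in Mel+LPS (71.4%), but 1 of 14 up in Mel+LPS (7.14%). Over all coding genes these shares were 20.1%, 18.5%, 32.0% and 5.51%. The members' share was the higher one up in LPS, down in LPS and down in Mel+LPS. Up in Mel+LPS it came from 1 peak, and its Wilson interval of 1.27 to 31.5 holds the 5.51% of all coding genes. None of these differences was tested. The distant peaks were all in Esr1 or Pgr, where they were 8 of 8 peaks up in LPS and 6 of 7 down in LPS. In Mel+LPS vs LPS they were 5 of 5 Esr1 and Pgr peaks down and 1 of 4 up. Of the 14 peaks up in Mel+LPS, 9 were in coregulator genes and 0 of these were distant.

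Esr1, which spans 394 kb of chromosome 10, was the only member with peaks in all 4 tables, one of which does not reach Ncoa1, Ncor1 or Nr3c1. It had 5 peaks up and 7 peaks down in LPS, so the gene as a whole had no single direction. The peaks up in LPS lay 15.3, 68.9, 191, 280 and 299 kb from the transcript start, with scores of 8.76, 3.78, 2.62, 7.63 and 6.80. The site at 280 kb, chr10:4892234-4892378, is an exon of a noncoding Esr1 transcript (NR_126357) and lies in intron 6 of the coding one. The peaks down in LPS lay between 135 and 334 kb, and the highest, in intron 6 at chr10:4863877-4864001, scored 6.28. The lowest of these, with 20 bases on coding exon 4, scored 1.53. Scores of 3.63 at 3 of these 7 peaks are the same as those of 761 peaks of that table, and the 3.78 above is shared by 1450 peaks, so these values do not separate the sites from many others.

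In Mel+LPS vs LPS, Esr1 had 3 peaks up and 2 down. The peaks up scored 5.51 at a site 94 bases after exon 5, 1.79 at the end of exon 6, and 6.80 in intron 7. The peaks down scored 6.29 in intron 5 and 9.04 in intron 6. Both sites down were also up in LPS. The intron 5 site, chr10:4803068-4803311 in LPS vs Veh, overlapped its counterpart by 244 bases and scored 2.62 up against 6.29 down. The intron 6 site, chr10:4911248-4911448, overlapped by 201 bases and scored 6.80 up against 9.04 down. A peak down in LPS, chr10:4803397-4803511, lay 85 bases beyond the intron 5 site that was up, and scored 3.63. Neighbouring Esr1 sites in intron 5 were therefore listed in opposite directions.

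**Figure D2:**
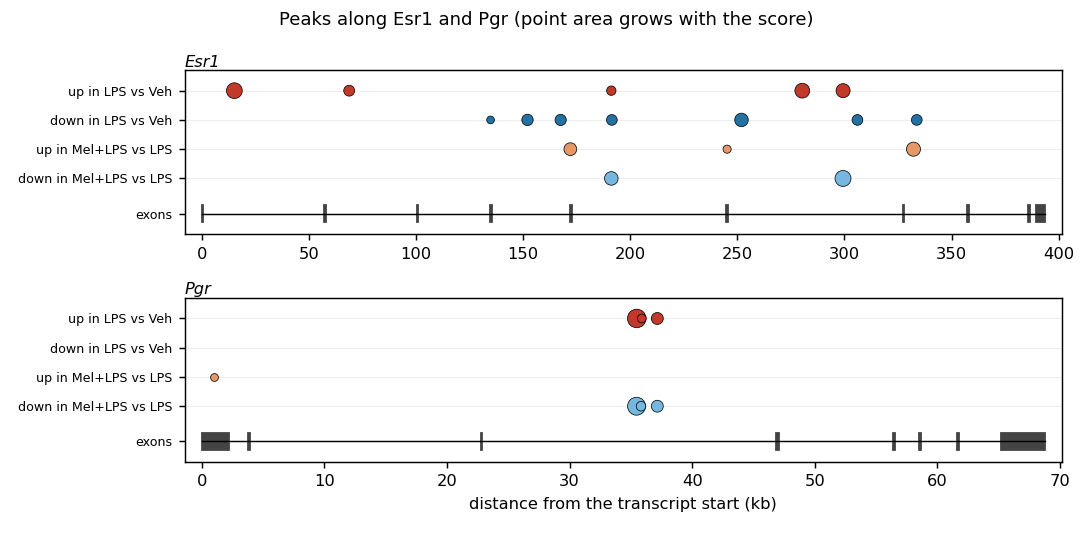
Positions of the peaks along Esr1 (top) and Pgr (bottom), in kb from the transcript start; a row stands for a table, point area grows with the score, and dark boxes are exons. Most points lie between exons, and the 2 Esr1 sites and 3 Pgr sites in the lowest peak row sit under points in the top row.

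Pgr held the highest-scoring member peak. All 3 of its peaks up in LPS and all 3 down in Mel+LPS were in intron 3, between 35.5 and 37.2 kb from the start of a 68.8 kb gene, and 9652 bases or more from the nearest exon. The first site, chr9:8935199-8935432, scored 12.5 up in LPS, and 229 of the 12023 peaks of that table scored higher. At the same start the peak down in Mel+LPS scored 11.6, with 126 of 9211 higher. The second site scored 2.16 up and 2.77 down, with an overlap of 105 bases. The third, chr9:8936909-8937077, had the same start and end in both tables and scored 4.74 up and 4.69 down. The only exonic Pgr peak under the rule, in coding exon 1 at chr9:8900766-8900974, was up in Mel+LPS with a score of 1.61. Its DRACH window is printed above. No Pgr peak was down in LPS, in the part of that table that is complete.

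These 5 sites, 3 in Pgr and 2 in Esr1, were the only member sites that overlapped by at least 1 base between tables of opposite direction. They were 5 of 11 member peaks up in LPS, against 38.5% of all peaks of that table, and 5 of 7 down in Mel+LPS, against 50.6%. At 3 of the 5 sites both scores were at least 3, and the like share over all overlapping peaks is not given here. In the other direction, 0 of 3 member peaks down in LPS on chromosomes 1 to 9 overlapped a peak up in Mel+LPS, where 30.3% of all peaks did, and 0 of 6 member peaks up in Mel+LPS there overlapped one down in LPS (26.5% of all). No member site was listed in the same direction in both comparisons. That held for 0 of 11 members up in LPS (2.25% of all such peaks) and 0 of 14 up in Mel+LPS (2.02%), and on chromosomes 1 to 9 for 0 of 3 down in LPS (0.799%) and 0 of 4 down in Mel+LPS (1.06%).

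**Figure D3:**
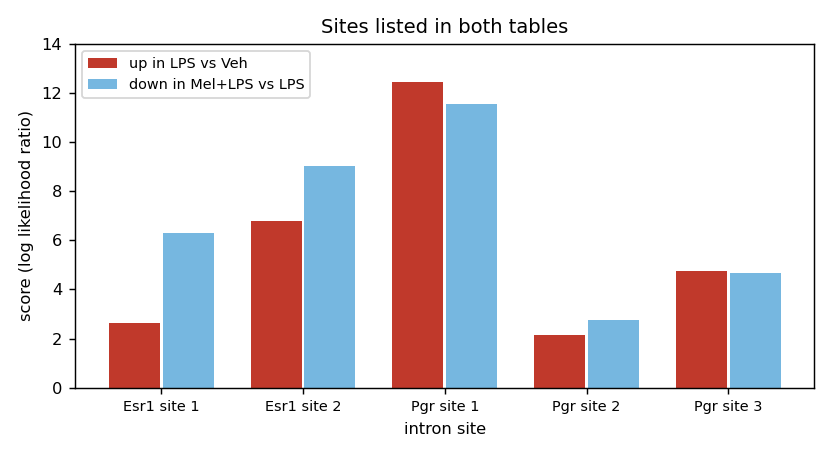
Scores (log likelihood ratio) of the 5 intron sites listed as up in LPS (red) and as down in Mel+LPS (blue); each bar is 1 deposited score, with no replicate error. Pgr site 1 has the highest pair, 12.5 and 11.6, and both Esr1 sites score higher in Mel+LPS vs LPS.

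Nr2f2, a short gene of 3 exons, had a peak at each end under the rule. The peak near its start, chr7:70360200-70360384, was up in Mel+LPS with a score of 2.30. It is of the 5'UTR class in the deposited annotation and on coding exon 1 of the GENCODE transcript. The peak at chr7:70353921-70354163 in the 3'UTR, 618 bases after the stop codon, was down in Mel+LPS with a score of 1.10, and 98.8% of the peaks in that table scored higher. No DRACH match was found in the first of these peaks and 4 were found in the second. Another Nr2f2 peak, chr7:70360635-70360797, was left out by the rule and was down in Mel+LPS with a score of 1.53. It lay in the GENCODE gene at -0.123 kb from the start of the transcript used here. Listed peaks near the start of Nr2f2 thus had both directions. Nr3c1 had no peak by the rule. A site that the rule left out lay inside its GENCODE gene, at -1.52 kb from the start of the transcript used here. It was of the promoter class and down in Mel+LPS, with a score of 3.85 that 1370 peaks share.

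The p160 coactivators Ncoa1 and Ncoa3 shared a position. In both, the peaks on exon 12 were up in LPS at one place and up in Mel+LPS at a neighbouring place. In Ncoa1 the peak up in LPS, chr12:4295235-4295425, scored 2.10, the peak up in Mel+LPS, chr12:4294999-4295221, scored 2.69, and 13 bases lay between them. In Ncoa3 the corresponding peaks, chr2:166055478-166055738 and chr2:166055035-166055374, scored 1.68 and 1.57 with 103 bases between them. The sequences of these 4 peaks are the first ones printed above. In Ncoa1 the peak up in Mel+LPS lay closer to the 3' end of the mRNA, and in Ncoa3 it lay closer to the 5' end.

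Ncoa3 also had the second highest score of any member in LPS vs Veh. The peak at chr2:166059856-166059963, in intron 16 and centred 88 bases after exon 16, was up with a score of 10.8, and 344 peaks of that table scored higher. The next exon, number 17, carried a peak that was down in LPS, chr2:166060867-166061065, with a score of 1.63 and 903 bases from the former. Ncoa3 therefore had peaks of both directions in LPS vs Veh. Under the rule it had none down in Mel+LPS, while a peak in its 3'UTR that the rule left out was down (3.40).

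Ncoa2 showed one direction in each comparison. Its 2 peaks in LPS vs Veh were both down, with scores of 5.03 just after exon 8 and 1.16 at exon 21. Its 3 peaks in Mel+LPS vs LPS were all up, with scores of 5.91 at exon 4, 2.31 on exon 11 and 9.90 at chr1:13152214-13152342, centred 101 bases after exon 18. None of the sites down in LPS overlapped a site up in Mel+LPS, so the opposite directions came from different places in the gene. The score of 9.90 was exceeded by 402 of the 13436 peaks up in Mel+LPS.

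Ncor1 had 4 peaks up and 1 down in Mel+LPS and none up in LPS. The peaks up scored 6.11 after exon 9, 1.72 at exon 19, 2.21 on exon 20 and 7.67 at 127 bases after exon 22, the last a score that 32 peaks of the table share. The peak down, chr11:62389505-62389711, scored 6.29 and was centred 83 bases after exon 14, between the sites at exons 9 and 19. The corepressor gene, like Esr1, Pgr and Nr2f2, thus held sites of both directions in the comparison of Mel+LPS with LPS.

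**Figure D4:**
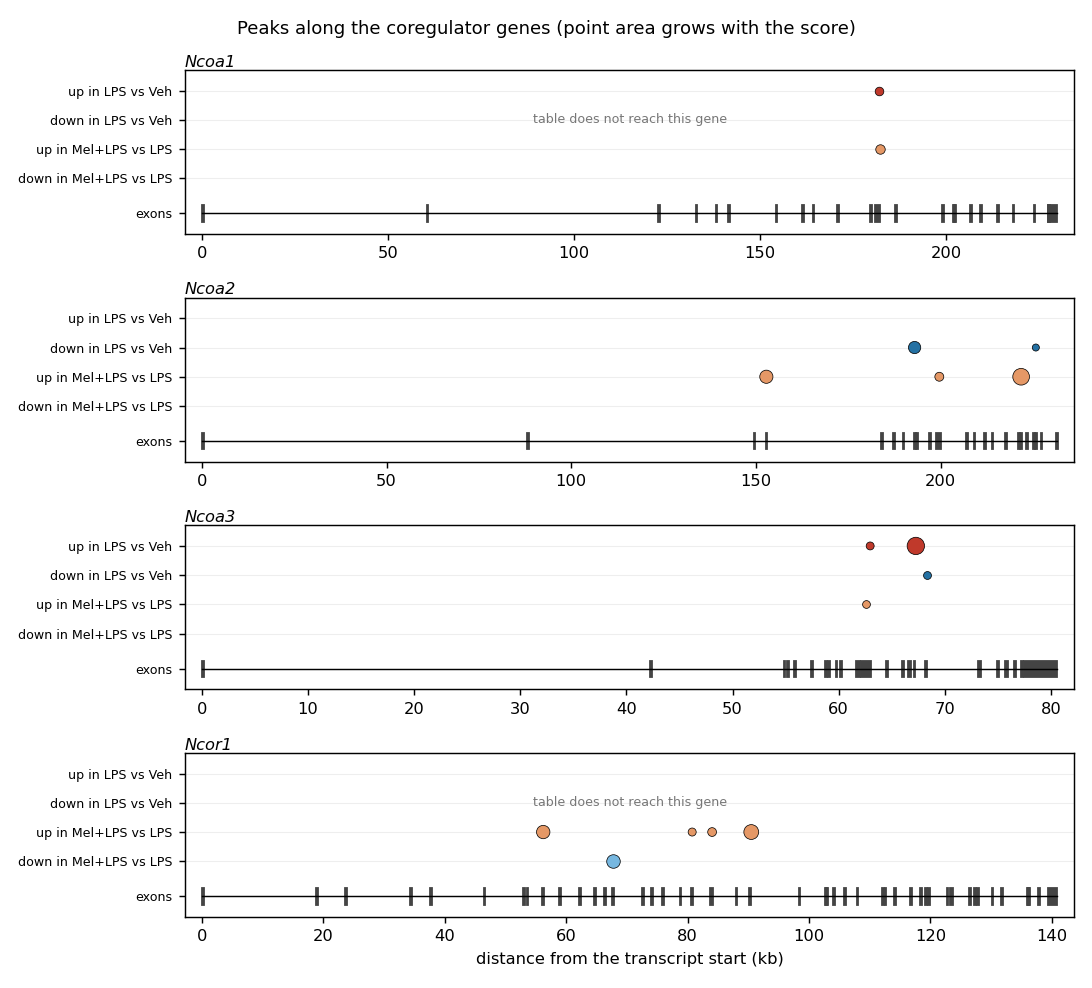
Positions of the peaks along Ncoa1, Ncoa2, Ncoa3 and Ncor1, in kb from the transcript start; rows, point areas and exon boxes are as for the receptors. All 16 peaks are centred on or within 127 bases of an exon, and 9 of them are up in Mel+LPS.

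The longest internal exon carried a peak in all 4 coregulator genes. These are exon 12 of Ncoa1 (1339 bases), exon 11 of Ncoa2 (1270 bases), exon 12 of Ncoa3 (869 bases) and exon 20 of Ncor1 (547 bases), while the median internal exon of these genes has 147 to 173 bases. They held 6 of the 13 peaks that touched an internal exon of these genes. Esr1, the only receptor gene with a peak on an internal exon by this count, had peaks on exons 4 and 6 and none on its longest, exon 3, so the count over all members was 4 of 5 genes (80%) and 6 of 15 peaks (40%). Among all 4743 genes of at least 5 exons with a peak on an internal exon, 42.5% had one on the longest, and 31.0% of 10225 such peaks touched it. Longer exons offer more bases to a peak, and this was not adjusted for. All 4 exons had a peak up in Mel+LPS, with scores of 1.57 to 2.69, and those of Ncoa1 and Ncoa3 also had one up in LPS. The peaks centred on exons scored lowest among the members, with scores of 1.10 to 2.69 and a median of 2.10. The 13 centred within 200 bases after an exon had a median of 5.51, and the 20 distant ones 4.71. Over all coding genes the medians of these 3 kinds were 2.01, 2.26 and 3.85.

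Of the peaks that were near but not on an exon, all 13 lay on its 3' side and none lay within 200 bases before an exon. This was so for genes on the plus strand (Esr1, Ncoa3) and on the minus strand (Ncoa2, Ncor1), at distances of 20 to 127 bases. Over all coding genes 39.7% of peaks were centred within 200 bases after an exon and 1.38% within 200 bases before one. The shares after an exon were 37.7% on the plus strand and 41.8% on the minus strand. The placement was thus seen across the tables as well as in these genes, and its cause was not tested. A position given as just after an exon may not be the position of the methylated base.

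DRACH was counted on the mRNA strand in the exon bases of the 12 member peaks that had at least 50 of them. There were 64 matches in 2386 bases, 26.8 per 1000 (exact Poisson 95% interval for counting error only, 20.7 to 34.3), against 24.7 per 1000 in 17961 peaks of all genes. At least 1 match was present in 10 of the 12 (83.3%) and in 95.4% of all such peaks. The core GGAC, which is contained in some DRACH matches, was present in 66.7% of the members and 55.7% of all peaks. The 2 peaks with no DRACH match were the one on Nr2f2 near its start and the one at exon 17 of Ncoa3. The intronic sites of Esr1 and Pgr were not searched here.

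Sites in the same genes were left out by the rule mainly where the deposited annotation gave them a class with no gene name and assigned them to a neighbouring gene. On the last exon of Esr1, a peak up in Mel+LPS, chr10:5001470-5001688, lay 159 bases after the stop codon with a score of 5.26, and another in the same 3'UTR was up in LPS with a score of 1.35. Both were assigned to Syne1. A 3'UTR peak of Ncoa1, 228 bases after the stop codon, was up in Mel+LPS with a score of 1.69, and one of Ncoa3 was down with a score of 3.40. Ncoa3 also had 2 peaks down in LPS within its introns 4 and 6, centred 68 and 15 bases after an exon, with scores of 4.70 and 5.95. A peak at the start of Pgr, chr9:8899703-8899907, was centred just upstream of the gene, with 75 bases on its first exon. It was up in LPS with a score of 2.72. In all 27 peaks were left out in this way or were assigned to a member from outside its body, 10 of them within a member's GENCODE gene and 12 outside Pgr but assigned to it. Under the rule 2 of 42 peaks were of the 3'UTR class (4.76%, Wilson interval 1.32 to 15.8), against 12.8% of all tied peaks. With every peak centred in a member's GENCODE gene the count was 7 of 52 (13.5%, 6.68 to 25.3).

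The receptors and coregulators act with other genes that were grouped into 4 lists. Counts are of genes with a peak in a table, out of those of the list with a peak in any table, and the backgrounds are the shares of all genes given above. Other coregulators had 22 of 26 genes up in Mel+LPS (84.6%), against 11 of 26 up in LPS (42.3%) and 11 of 26 down in Mel+LPS (42.3%). The highest scores up in Mel+LPS were those of Ep300, a histone acetyltransferase recruited by the p160 proteins (12.0), and Rcor1, a corepressor (11.5). Ep300 was also among the highest down in Mel+LPS, at another site (5.83), beside Ppargc1a, a coactivator of energy metabolism (5.80). Ncoa7 had a peak up in LPS (4.54). Sin3a, a scaffold of deacetylase complexes (6.88), and Ncoa6 (3.63) led those down in LPS.

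Receptor chaperones hold steroid receptors ready for hormone. All 9 with any peak had one up in Mel+LPS, while 1 of 9 had one up in LPS and 1 of 9 down in Mel+LPS. Their scores were low, a median of 2.47 for the highest peak of each, and the top ones were the J-domain protein Dnajb1 (3.33) and the kinase cochaperone Cdc37 (3.16). On chromosomes 1 to 9, 3 of 4 had a peak down in LPS, led by the immunophilins Fkbp4 (1.89) and Ppid (1.70). The 1 gene up in LPS and down in Mel+LPS was Ptges3, the p23 cochaperone, in the same intron with 3.19 and 1.34.

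Other nuclear receptors had 6 of 13 genes up in LPS, 3 of 5 down on chromosomes 1 to 9, and 6 and 7 of 13 up and down in Mel+LPS. Rxra, the common dimer partner, had an exon site down in LPS (5.90) and up in Mel+LPS (6.97). The highest score of the list was that of a retinoic acid receptor gene, Rarb, down in Mel+LPS (18.7). Nr4a3 was up in LPS (7.94), the mineralocorticoid receptor gene Nr3c2 was down (4.45), and the vitamin D receptor gene Vdr was up in Mel+LPS (5.42).

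Among genes known to respond to estrogen, progesterone or glucocorticoid, 8 of 18 were up in LPS, 8 of 10 were down on chromosomes 1 to 9, and 10 and 7 of 18 were up and down in Mel+LPS. Bmp2, a decidualization signal, had the highest score of the 4 lists, 25.3, down in LPS. The estrogen-induced secretory gene Ltf was next among the hormone-responsive genes down in LPS, with 12.2. The highest up in LPS were the complement gene C3 (7.50) and the calcium-binding protein gene Calb1 (6.98). Il13ra2 (9.07) and Wnt4 (7.13), both genes of decidualizing stroma, led those up in Mel+LPS. Zbtb16, induced by progesterone and glucocorticoid, led those down (9.26), followed by Calb1 (5.59).

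**Figure D5:**
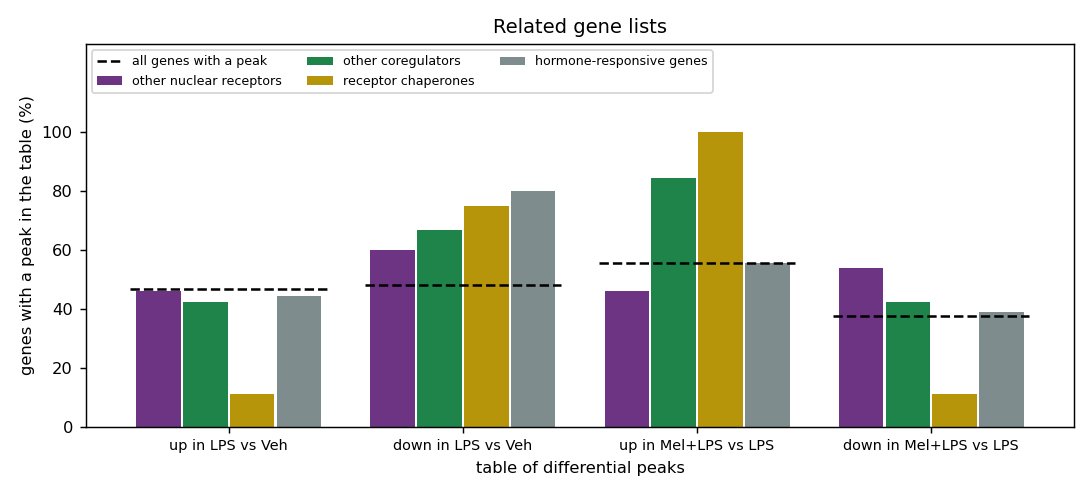
Share of the genes of each list that had a peak in each of the 4 tables (percent of its genes that had a peak in at least 1 table; peaks down in LPS on chromosomes 1 to 9 only), with the share of all genes as dashed lines. Receptor chaperones and other coregulators stand above the line up in Mel+LPS, at 100% and 84.6% against 55.6%.

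The genes most like a member were found from the highest score of each gene in each of the 4 tables, on a log2(1 + score) scale, among 6565 other genes on chromosomes 1 to 9. For Pgr they were Vps50 (distance 0.41), Patj (0.87) and Tra2a (0.87), which were up in LPS (9.67, 10.8 and 14.2) and down in Mel+LPS (9.82, 6.03 and 7.32). For Ncoa3 they were Usp47 (0.11), Ppfia1 (0.32) and Tnrc6a (0.43), with 10.1, 10.1 and 11.6 up in LPS and 1.52, 2.11 and 2.26 down. Markers of the uterine cell types were present among the differential peaks, in 4 of 7 uterine, 4 of 5 epithelial, 3 of 4 stromal, 4 of 4 smooth muscle, 3 of 4 leukocyte and 3 of 3 endothelial genes. Of all protein-coding RefSeq genes 42.3% had a peak in at least 1 table, as had 7 of the 8 members. The leukocyte gene Ptprc had an intron site up in LPS (3.78) that was down in Mel+LPS (3.85), scores that 1450 and 1370 peaks share, and an exon site up in Mel+LPS (7.62). The part of a change in cell types in the member results was not tested.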

How the data were processed

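Per the study's methods, reads were trimmed with Fastp, aligned with STAR, peaks were called on IP and input with exomePeak2, treatments were compared with MACS2 and peaks were annotated with ChIPseeker. The submitters' processing notes name STAR 2.5.2a, MACS2 3.4, ChIPseeker 1.22.1, HOMER 4.10 and mm10. The score deposited by the authors is a log likelihood ratio, 1 per peak and comparison. How replicates were combined and how input entered the comparison are not given in the sources used here. Depth per library was not computed.

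Peaks were tied to members by the rule above. Positions were placed on 1 GENCODE M21 transcript per coding gene (GRCm38), and motifs were counted in its exon sequence. Peaks down in LPS were used on chromosomes 1 to 9 for the gene and overlap backgrounds, and as far as the list goes for Esr1 and for the placement of peaks on transcripts. No test was made. Shares have Wilson 95% intervals over peaks, which describe the tables and not mice. Members and lists were chosen with earlier results of these data known. Named genes are the members, the 2 highest-scoring genes of each list in each table, and the 3 genes most like each member with peaks in at least 3 tables and on chromosomes 1 to 9. Some genes that meet the rule are left out of the text. Ptprc was named after its values were seen. The steps were tested on simulated data. Alternatives were other rules for tying peaks, a score of at least 3, merged peaks, other overlaps, GENCODE classes, another motif and moved peaks. Python 3.11.15, numpy 2.4.6, pandas 2.3.3, scipy 1.17.1 and matplotlib 3.10.9 were used.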

Additional observations from a re-analysis of the deposited data

How the results depend on the processing

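Of 55 alternative values, 47 stayed within 1.5 times the count reported or, for shares and densities, inside the 95% interval of the reported value. The 47 include counts of shared sites that were 0 as reported. There the stricter overlap and score settings could only give 0 again, so they say nothing on how stable the result is. With only scores of at least 3, the peaks up in LPS fell to 7 from 11, those up in Mel+LPS to 6 from 14 in 3 rather than 7 genes, and the sites up in LPS and down in Mel+LPS to 3 from 5. The share of 3'UTR peaks was then 0 of 25 (Wilson interval up to 13.3%) instead of 4.76%. With every peak assigned to a member, wherever it lies, 12 peaks rather than 7 were down in Mel+LPS. With sites within 100 bases counted as shared, 1 site rather than 0 was up in both comparisons. GGAC alone gave 7.96 matches per 1000 bases in place of 26.8 for DRACH, as a motif with fewer matches must. Taking every peak centred in a GENCODE gene, an alternative added after seeing the data, moved no count of peaks or members per table by over 1.5 times but raised the 3'UTR share to 13.5% (7 of 52). The class of the peak centre on GENCODE gave 2.38% (1 of 42). Both lie inside the wide interval of the reported share. No paired analysis was possible because the tables hold no value per replicate, and for the same reason no replicate could be left out.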
